A study of Mus musculus with 16 samples.

Results

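The comparison described here sets passage 7 against passage 4 of 1 mouse cell line kept without doxycycline (DOX), and so follows what changed in the uninduced line over further passages in culture. It takes the 4 libraries of passage 7 without DOX and the 4 of passage 4 without DOX, 8 of the 16 libraries in the series. Of the 55536 genes in the count table, 14806 passed the filter on low counts and were tested, and 28098 had no count in any of the 8 libraries. The line is an inner medullary collecting duct epithelium newly established from a Pkd2 knockout mouse, in which DOX switches on the deletion of Pkd2. All groups were grown on permeable filters for 10 days in the same renal epithelial medium with serum. The cells compared here received no DOX, while the other 8 libraries came from cells of both passages given 2 ug/mL DOX for 6 days. The sample titles call all 16 libraries Pkd2 knockout cells, whereas the genotype label reads wild type for the 8 libraries without DOX and knockout for those with it, so both passages compared here are the same inducible line, not induced. Total RNA was selected for poly(A) and sequenced as 75-base paired reads. The line is 1 model, and the labels do not say whether replicates 1 to 4 are separate cultures, so p-values measure the spread between these libraries, which may be technical.

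The collecting duct is the last segment of the kidney tubule, where principal cells take up sodium and water under aldosterone and vasopressin and intercalated cells secrete acid or base. Pkd2 encodes polycystin-2, an ion channel found in cilia and in the endoplasmic reticulum, which forms a complex with the Pkd1 product, and losing either causes cystic kidney disease. Epithelial lines put under culture for many passages are known to drift in growth, in differentiation and in their chromosomes, and an uninduced line is the baseline against which an induced deletion is read.

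Library totals ran from 9937504 to 14757760 counts, and mitochondrial genes took 1.095% to 2% of the counts. The first principal component, with 50.48% of the variance, separated the passages, and the second, with 24.13%, separated replicates 1 and 2 from replicates 3 and 4 within both. The labels do not say what these 2 replicate sets are, and the set was a term in the fit. Of 20 principal cell markers, 12 were tested. The water channel Aqp2, which defines principal cells, had no count in any of the 8 libraries. Aqp3 and Aqp4, its partners on the basolateral side, and Slc14a2, the urea transporter of the inner medulla, had at most 3 counts in a library. The general epithelial and nephric genes were present, with a summed level of 8155 to 8373 CPM (counts scaled to one common library total) at passage 4 and 9076 to 10053 CPM at passage 7. Endothelial markers summed to 5.98 to 6.93 CPM and 10.3 to 11.5 CPM, with Pecam1 at or near 0, stroma markers to 18.6 to 27.6 CPM and 18.9 to 27.6 CPM, and leukocyte markers to 592 to 954 CPM and 679 to 890 CPM, most of it Cd74 and with Cd3e and Itgam at or near 0. Within these sums single markers rose: 3 of 5 tested stroma markers, 2 of 4 endothelial and 2 of 4 leukocyte markers were higher at passage 7, and 1 of each list was lower. Cd68 went from 12.3 to 17.2 CPM at passage 4 to 25.5 to 35.0 CPM at passage 7, Csf1r from 22.2 to 28.3 CPM to 38.2 to 42.4 CPM, and Flt1 from 2.05 to 3.08 CPM to 4.77 to 7.24 CPM. Twist1 rose by 1.14 and Dcn by 2.21 on the log2 scale, Dcn from at most 6 counts in a passage 4 library. Other members went down. Ptprc, of the leukocyte list, went from 2.50 to 4.56 CPM to 0.447 to 1.70 CPM. Ehd3, of the endothelial list, went from 1.34 to 1.75 CPM to 0.522 to 1.11 CPM. Acta2, of the stroma list, went from 11.3 to 19.8 CPM to 8.61 to 13.1 CPM, with overlap. The part of other cell types in the results was not tested.

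Passage moved a large part of the transcriptome by small amounts. At an adjusted p under 0.05 (Benjamini-Hochberg over all tested genes, edgeR quasi-likelihood test with replicate set as a term), 5730 genes (38.7%) differed, 3080 (20.8%) higher and 2650 (17.9%) lower at passage 7. The median absolute log2 fold change of these genes was 0.32, and 350 genes (2.36%) were at least 2-fold higher and 196 (1.32%) at least 2-fold lower. In 3712 of the 5730 the 4 libraries of one passage all lay beyond the 4 of the other, and over all tested genes, with or without a call, this held for 4038 (27.3%). Without the set term the counts fell to 2036 higher and 1549 lower genes. Levels in the text are CPM on library sizes scaled by trimmed mean of M-values (TMM), given in the order of replicates 1 to 4 with passage 4 first, and a log2 fold change is passage 7 minus passage 4.

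The 15 largest rises among genes reaching 5 CPM ran from 2.09 to 3.59 on the log2 scale and the 15 largest falls from −3.54 to −1.98. Both were taken only from genes past the test whose passages did not overlap. Their lack of overlap therefore follows from the choice. Tns4, a member of the tensin family, was at 0.501, 1.04, 0.669 and 0.629 CPM at passage 4 and at 5.96, 8.59, 10.7 and 9.62 CPM at passage 7. Its level was high in every passage 7 library and the groups did not overlap (log2 fold change 3.59, SE 0.23, adjusted p = 3.9e-10). S100a14, a calcium-binding protein of lining epithelia, was at 10, 8.75, 9.03 and 7.71 CPM and then at 66, 59, 68.6 and 71.1 CPM (log2 fold change 2.90, SE 0.09, adjusted p = 2.1e-15). The transcription factor Sp8 rose by 3.22, the alcohol and retinol dehydrogenase Adh1 by 3.04, the retinoic acid hydroxylase Cyp26b1 by 2.55 and the lipid-sensing receptor Pparg by 2.35 on the log2 scale. Sorcs2, a sorting receptor related to sortilin, stood at 39.7, 37.3, 32.9 and 28.4 CPM at passage 4 and at 172, 181, 148 and 131 CPM at passage 7. All 4 later libraries lay far above the earlier ones (log2 fold change 2.19, SE 0.06, adjusted p = 9.8e-16). Gda, Mybpc2, Masp1, Elfn1, Rassf2 and Ptges made up the rest of the 15 with Lrrc26 and Grin1. Those last genes abut each other tail to tail on chromosome 2 (25289915 to 25291180 and 25291181 to 25319187), and because the sources used here do not state the strand setting of the counting, their reads cannot be told apart with certainty.

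Receptors and differentiation genes stood among the largest falls. Erbb4, the neuregulin receptor of the EGF receptor family, had 18.9, 17.9, 16.5 and 21.6 CPM at passage 4 and 1.86, 1.59, 1.62 and 2.94 CPM at passage 7. Each passage 7 library was low and no value overlapped (log2 fold change −3.24, SE 0.16, adjusted p = 7.3e-12). Cldn19, the claudin of the thick ascending limb, was at 26.5, 29.7, 26.5 and 26.1 CPM and then at 3.35, 4.77, 4.85 and 4.56 CPM (log2 fold change −2.64, SE 0.11, adjusted p = 1.2e-12). Cadps2, which primes dense-core vesicles for release, fell by 3.54, Pou3f3, a transcription factor of the nephron, by 2.47, and Sostdc1, a secreted antagonist of BMP and Wnt signals, by 2.15 on the log2 scale. Thsd7b, Tshz2, Il5ra, Slc8a1, Shc2, Gbp5, Tdrp, Dennd2a and Rcan2 were also among the 15. Measured as a difference of mean CPM, the largest gains included Spp1, Gapdh, Pkm, Ldha, Actb, Tpi1, Anxa1 and Bsg, and the largest losses Eef1a1, Plau, B2m, Tns1, H2-K1, Iigp1, Itga3 and Irgm1. Plau, the urokinase gene, was at 2080, 1983, 1861 and 1979 CPM at passage 4 and at 1527, 1361, 1427 and 1370 CPM at passage 7. Every later library was below every earlier one (log2 fold change −0.47, SE 0.05, adjusted p = 1.1e-07).

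**Figure D1:**
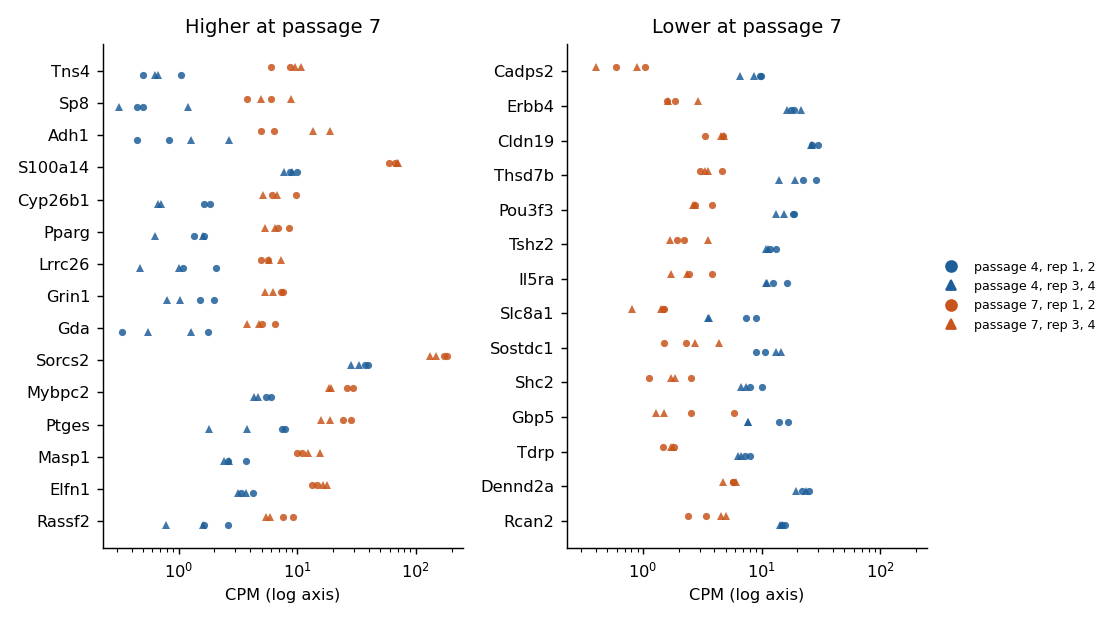
Level in each library (CPM, log axis) of the genes with the largest rise (left) and the largest fall (right) from passage 4 (blue) to passage 7 (orange) without DOX; circles are replicates 1 and 2, triangles replicates 3 and 4. For each gene shown, the 4 passage 7 libraries lie apart from the 4 passage 4 libraries, which was a condition of the choice.

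The passage change differed from chromosome to chromosome. The median log2 fold change over all tested genes was −0.0040, but it was 0.25 on chromosome 5 (981 tested genes, 543 higher and 25 lower), 0.23 on chromosome 15 (578 tested, 335 higher and 19 lower) and 0.21 on chromosome 16 (470 tested, 238 higher and 12 lower). On the linear scale these medians are a 1.19-fold, a 1.17-fold and a 1.15-fold higher level. Chromosomes 14 and 13 went the other way, with medians of −0.15 (496 tested, 52 higher and 176 lower) and −0.14 (559 tested, 39 higher and 196 lower). Chromosome 6 had a median of 0.13 (264 higher and 45 lower of 740). Chromosomes 1, 8, 11 and 12 had medians between −0.022 and −0.0088.

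Chromosomes 5, 15 and 16 held 2029 of the tested genes (13.7%) but 36.2% of all genes that rose. Of their genes, 55.0% rose and 2.76% fell, against 1873 and 2222 of the 11722 genes outside these and chromosomes 13 and 14. Chromosomes 13 and 14 held 1055 tested genes, of which 8.63% rose and 35.3% fell. Of the genes that changed at least 2-fold, 266 of the 350 that rose and 152 of the 196 that fell lay outside these 5 chromosomes. Outside them lay 79.2% of all tested genes, 60.8% of all genes that rose and 83.8% of all that fell. With each chromosome's median taken out of the fit, 2211 genes (14.9%) were higher and 1869 (12.6%) lower, and 3387 of the 5730 calls were kept.

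The shift ran along the length of these chromosomes. In runs of 100 neighbouring tested genes, the lowest and highest medians were 0.188 and 0.318 on chromosome 5, 0.165 and 0.28 on chromosome 15, and 0.167 and 0.247 on chromosome 16. No run of 100 genes on them reached 0, and none on chromosome 13 (−0.201 to −0.099) or 14 (−0.199 to −0.058) came above it. On chromosome 1, runs went from −0.0845 to 0.098. Each library showed the shift by itself. Relative to the mean of the 8 libraries, the median gene of chromosome 5 was at −0.137 to −0.11 in the passage 4 libraries and at 0.119 to 0.134 in the passage 7 libraries. The 4 and 4 libraries did not overlap in this measure on 16 of 20 chromosomes (1 to 19 and X), and on all 16 of them the libraries with DOX, which are other libraries, did not overlap either and differed in the same direction. Across the 20 chromosomes the medians without and with DOX had a Pearson r of 0.98, and those of the 2 replicate sets an r of 0.96, as a description with n = 20 chromosomes. The contrast between replicate sets moved no median of these 20 chromosomes outside −0.031 to 0.026. Those between cells with and without DOX moved none outside −0.058 to 0.049. The few genes of Y (7 tested) and the mitochondrial genome (12 tested) went beyond this, with medians of −0.10 and 0.69 between sets. With against without DOX, their medians at passages 4 and 7 were 0.021 and 0.15 for Y and 1.18 and 0.84 for the mitochondrial genome. No DNA measurement was analysed here.

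**Figure D2:**
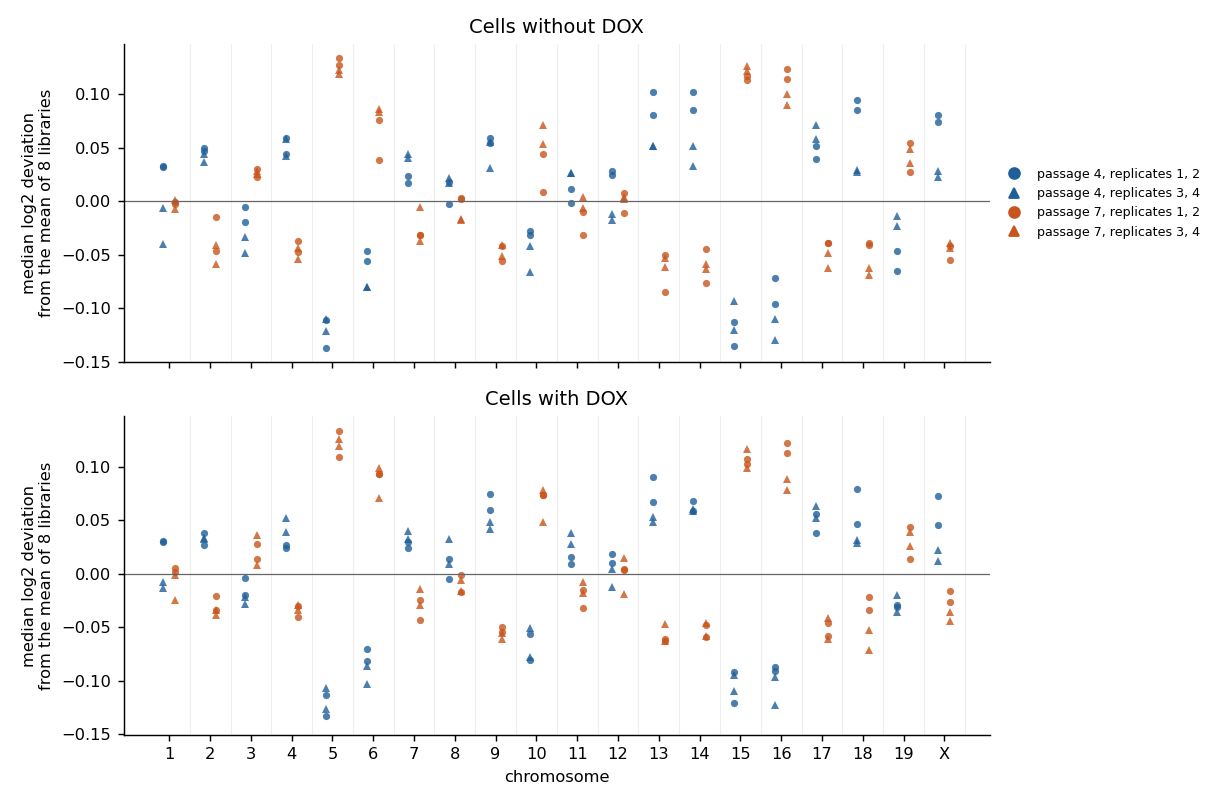
Median log2 deviation of the tested genes of each chromosome from the mean of 8 libraries, for each library without DOX (upper panel) and with DOX (lower panel); blue is passage 4, orange passage 7, circles replicates 1 and 2, triangles replicates 3 and 4. Passage 7 libraries lie above passage 4 libraries on chromosomes 5, 15 and 16 and below them on 13 and 14, in both panels.

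**Figure D3:**
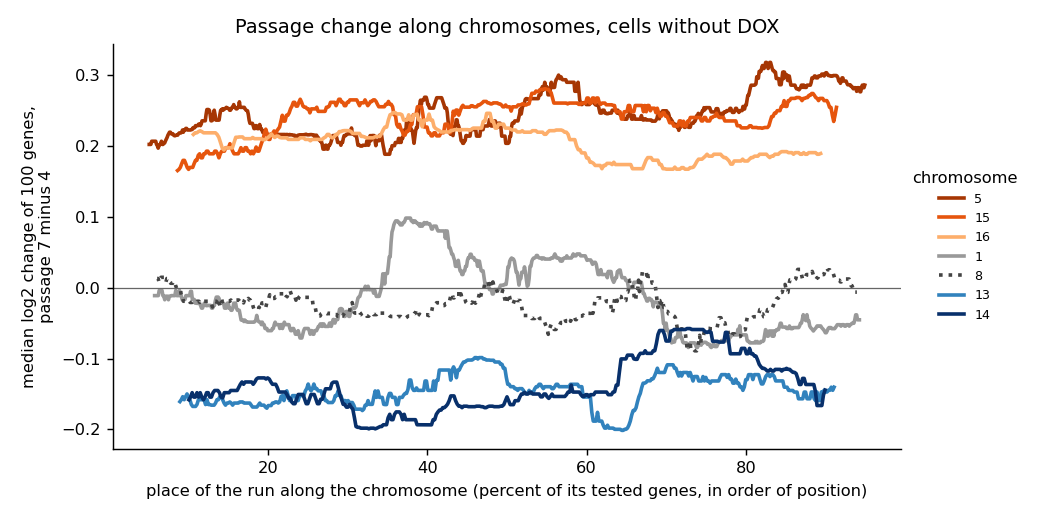
Median log2 change from passage 4 to passage 7 without DOX in runs of 100 neighbouring tested genes along 7 chromosomes, placed by the percent of the chromosome's tested genes. The lines of chromosomes 5, 15 and 16 stay above 0.165 or higher throughout, and those of 13 and 14 stay below 0.

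Pkd2 itself lies on chromosome 5 (GRCm38, 104459450 to 104505819, plus strand), and these cells received no DOX to delete it. It was expressed at both passages, at 146, 143, 136 and 139 CPM at passage 4 and at 189, 186, 185 and 187 CPM at passage 7. All passage 7 libraries were higher and the groups did not overlap (log2 fold change 0.41, SE 0.04, adjusted p = 3.2e-07). An exact 2-sided permutation test of the CPM, 4 against 4, gave p = 0.0286, the smallest that 70 arrangements allow. With the median of chromosome 5 taken out, the log2 fold change was 0.16. Pkd1, its partner on chromosome 17, was at 48.2, 43.2, 48.8 and 56.1 CPM and then at 46.9, 43.6, 38.5 and 38 CPM. The passages overlapped, and the log2 fold change of −0.23 (SE 0.08, adjusted p = 0.038) came from replicates 3 and 4 (−0.45) more than from replicates 1 and 2 (−0.01), a difference between the sets with an adjusted p of 0.035. The exact permutation test gave p = 0.0857 for Pkd1, and its call was lost without the set term and with the replicate number as a block (adjusted p = 0.059).

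Genes of mitosis rose together by a modest amount. Of the 38 genes of chromosome segregation and cytokinesis on the list, all tested, 35 rose and 0 fell, with a median log2 fold change of 0.42. Over all tested genes 20.8% rose and 17.9% fell with a median of −0.0040, and the counts of every list below stand against these. Cenpa, the histone of the centromere, was at 20.5, 17.4, 16.3 and 16.7 CPM at passage 4 and at 34.9, 32.1, 24.9 and 24.2 CPM at passage 7. No library of one passage reached the other (log2 fold change 0.71, SE 0.08, adjusted p = 1.6e-06). Such a separation held for only 4 of the 38 genes, against 27.3% of all tested genes. Racgap1, a regulator of cytokinesis, rose by 0.65 and Birc5, the survivin of the chromosomal passenger complex, by 0.50. Mki67, the proliferation antigen, was at 76.8, 61.6, 43.7 and 45.1 CPM and then at 97.8, 115, 46.2 and 54 CPM. Replicates 3 and 4 were low at both passages, so the passages overlapped, while within each set passage 7 was the higher (log2 fold change 0.42, adjusted p = 0.016). The list's median was 0.47 in replicates 1 and 2 and 0.32 in replicates 3 and 4. Between the sets, the list's median log2 difference of replicates 3 and 4 from 1 and 2 was −0.53. Without the set term the number that rose was 9 of 38. In bulk RNA, a larger share of cycling cells and more of these transcripts per cell cannot be told apart.

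Of 36 DNA replication genes, 25 rose and 1 fell, with a median of 0.36. Mcm2, a subunit of the replicative helicase, was at 185, 175, 173 and 169 CPM at passage 4 and at 219, 255, 207 and 212 CPM at passage 7. Its groups did not overlap (log2 fold change 0.35, SE 0.05, adjusted p = 1.8e-05). The sliding clamp Pcna rose by 0.34, the salvage kinase Tk1 by 0.75 and the helicase loader Cdc45 by 0.64, whereas Gins2, a helicase cofactor, fell by 0.20, a call lost with the replicate number as a block (adjusted p = 0.056). Chromosomes 5, 15 and 16 carried 10 of these genes, all of which rose, and 15 of the 26 elsewhere rose. For 8 of the 36 the change differed between replicate sets, where 675 of all tested genes (4.56%) did. Within replicates 3 and 4 alone 16 of the 36 rose.

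Targets of the hypoxia-inducible factors rose. These genes are switched on when the prolyl hydroxylases that mark the factors for destruction run short of oxygen. Of 22 tested members, 18 rose and 1 fell, with a median log2 fold change of 0.74. P4ha2, a collagen prolyl hydroxylase (chromosome 11), was at 145, 129, 91.6 and 85.7 CPM at passage 4 and at 279, 285, 241 and 221 CPM at passage 7. Passage 7 was high throughout and the groups lay apart (log2 fold change 1.21, SE 0.07, adjusted p = 1e-09). Ndrg1, a stress-responsive gene on chromosome 15, went from 195, 188, 151 and 140 CPM to 392, 403, 332 and 316 CPM, again without overlap (log2 fold change 1.10, SE 0.04, adjusted p = 5.1e-13). Epas1, which encodes a hypoxia-inducible factor itself, rose by 1.39, while the change of Hif1a was 0.11 and did not pass the test. The means at passages 4 and 7 were low for Epas1, 1.63 and 4.33 CPM, against 115 and 124 CPM for Hif1a. Vegfa, the vascular growth factor, rose by 0.62.

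Several members changed by more in replicates 3 and 4 than in 1 and 2, and these replicates began lower at passage 4. Egln3, a prolyl hydroxylase of the factors, was at 113, 114, 41.7 and 33.2 CPM at passage 4 and at 244, 269, 166 and 141 CPM at passage 7. Bnip3, a mitophagy receptor, was at 138, 129, 53.8 and 40.6 CPM and then at 204, 205, 172 and 154 CPM. Pdk1, the kinase that shuts off pyruvate dehydrogenase, was at 179, 173, 81.2 and 69.1 CPM and then at 252, 241, 215 and 189 CPM. In each of these genes the lower pair at passage 4 was replicates 3 and 4, and every passage 7 library was above every passage 4 library. The calls of Bnip3 and Pdk1 were lost with the replicate number as a block (adjusted p = 0.067 and 0.058), a fit in which 15 of the 22 rose. The hypoxia list's median was 0.49 in replicates 1 and 2 and 0.89 in 3 and 4, and the change differed between sets in 12 of 22 members, against 4.56% of all tested genes. Without the set term 9 of the 22 rose. Slc2a1, the glucose transporter, fell by 0.22.

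Glycolytic enzymes followed a like pattern with a median of 0.46. Of 22 members, which share Pdk1 and Slc2a1 with the hypoxia list, 13 rose and 2 fell. Tpi1, triosephosphate isomerase, was at 938, 940, 542 and 450 CPM at passage 4 and at 1260, 1343, 1150 and 1075 CPM at passage 7. Its replicates 3 and 4 were the low ones at passage 4 and no library overlapped (log2 fold change 0.82, SE 0.16, adjusted p = 0.011). Ldha, lactate dehydrogenase, was at 1345, 1300, 673 and 533 CPM and then at 1521, 1687, 1383 and 1255 CPM, with overlap between the passages (log2 fold change 0.70, adjusted p = 0.045, and 0.098 with the replicate number as a block). Pgk1 changed by 0.81 and did not pass the test, with 0.29 in replicates 1 and 2 and 1.36 in replicates 3 and 4. Ldhb, the other lactate dehydrogenase subunit, fell by 0.44. The change differed between sets in 13 of the 22 genes, and without the set term 4 rose and 1 fell. With the block 10 rose.

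**Figure D4:**
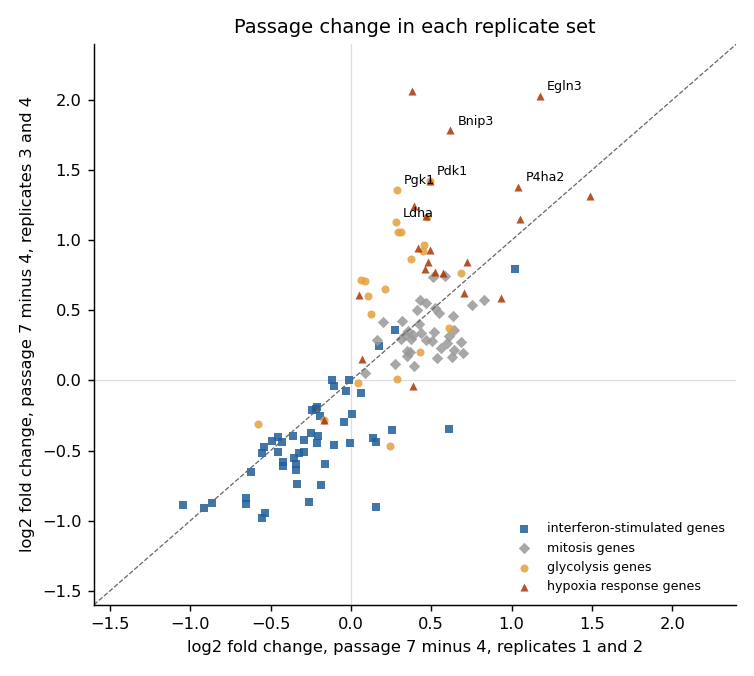
Log2 fold change from passage 4 to passage 7 without DOX in replicates 1 and 2 (x axis) against replicates 3 and 4 (y axis) for members of 4 gene lists, 1 point a gene; the dashed line marks equal change. Hypoxia and glycolysis genes lie mostly above the line (medians 0.49 and 0.89, and 0.28 and 0.71), while interferon-stimulated genes (medians −0.25 and −0.44) and mitosis genes lie near it.

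Promoter windows of 2 hypoxia genes are printed because neither gene's passages overlapped and both windows hold the core of the hypoxia response element. Each is the 250 bases before the annotated start, from RefSeq on GRCm38.p6: P4ha2 at chr11:54100674-54100923, plus strand, and Bnip3 at chr7:138909507-138909756, minus strand. Capitals mark ACGTG on either strand, and in Bnip3 the capitals cover a match on both strands that overlap.
P4ha2: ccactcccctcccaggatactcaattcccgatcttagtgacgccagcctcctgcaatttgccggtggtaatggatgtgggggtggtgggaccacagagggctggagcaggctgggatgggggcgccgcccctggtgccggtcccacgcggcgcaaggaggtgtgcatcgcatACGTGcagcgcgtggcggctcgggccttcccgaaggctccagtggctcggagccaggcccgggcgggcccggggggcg
Bnip3: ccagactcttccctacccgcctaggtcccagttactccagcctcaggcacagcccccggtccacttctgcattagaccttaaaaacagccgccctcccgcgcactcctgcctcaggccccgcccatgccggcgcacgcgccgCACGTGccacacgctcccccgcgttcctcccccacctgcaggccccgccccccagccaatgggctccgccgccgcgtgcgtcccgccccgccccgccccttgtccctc
The match of P4ha2 begins 78 bases before the start, and the matches of Bnip3 begin 108 and 107 bases before it. Of 10426 tested genes with a window, 24.9% had ACGTG in any of their windows, against 18.5% of all 27025 genes with a window. It was present in 16.6% of all 32851 windows. Of the hypoxia genes that rose, 14 had a window and 9 held the letters, as did all 3 of those that did not pass the test and the 1 that fell.

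The genes that interferons switch on went down. Interferons signal through transcription factors such as Stat2 and Irf9, which bind the interferon-stimulated response element in front of antiviral genes. Of 51 tested members, 32 fell and 3 rose, with a median log2 fold change of −0.37. Ifit3, an antiviral protein that binds foreign RNA, was at 577, 631, 528 and 460 CPM at passage 4 and at 360, 280, 252 and 273 CPM at passage 7. Every passage 7 library was low and the groups lay apart (log2 fold change −0.91, SE 0.07, adjusted p = 9.2e-07), though Ifit3 has a near-identical copy, Ifit3b, between which reads may be split. Isg15, the ubiquitin-like modifier, was at 38.4, 44.9, 43.8 and 38.4 CPM and then at 31.4, 25.2, 18.1 and 24 CPM. No values overlapped (log2 fold change −0.76, SE 0.11, adjusted p = 0.00019).

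The guanosine triphosphatases that attack vacuoles of pathogens fell as well. Irgm1 was at 1159, 1260, 1059 and 982 CPM at passage 4 and at 859, 792, 707 and 720 CPM at passage 7, with no overlap (log2 fold change −0.53, SE 0.05, adjusted p = 2e-08). Gbp2 was at 647, 746, 403 and 333 CPM and then at 453, 431, 195 and 217 CPM. Its passages overlapped across the replicate sets, and within each set passage 7 was lower (log2 fold change −0.74, SE 0.07, adjusted p = 1.4e-06). Igtp fell by 0.51 and Irgm2 by 0.43, but the annotated spans of these genes overlap on chromosome 11. Irf7, at −0.48, Usp18, at −0.04, and Rsad2, at −0.16, did not pass the test.

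Oasl1, a repressor of Irf7 translation, went against the rest of the list. It lies on chromosome 5 and was at 40.1, 43.5, 47.1 and 42.1 CPM at passage 4 and at 87, 82.9, 75.8 and 79.8 CPM at passage 7, with all later libraries higher (log2 fold change 0.91, SE 0.06, adjusted p = 1e-09). Isg20 and Samd9l rose by 0.21 and 0.32. Taking out the chromosome medians left 34 lower and 3 higher members, and without the set term 18 fell and 2 rose.

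Promoter windows of 4 interferon-stimulated genes that fell are shown for the response element they carry. They are the 250 bases before the RefSeq start on GRCm38.p6: Isg15 at chr4:156200819-156201068, minus strand, Ifit3 at chr19:34583279-34583528, plus strand, Irgm1 at chr11:48871421-48871670, minus strand, and Gbp2 at chr3:142620413-142620662, plus strand. Capitals mark GAAANNGAAA on either strand, with matches that overlap run together.
Isg15: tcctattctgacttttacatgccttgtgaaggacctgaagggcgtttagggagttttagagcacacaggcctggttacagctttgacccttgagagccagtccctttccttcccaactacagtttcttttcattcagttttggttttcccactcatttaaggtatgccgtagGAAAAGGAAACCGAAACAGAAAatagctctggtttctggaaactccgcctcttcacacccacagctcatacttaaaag
Ifit3: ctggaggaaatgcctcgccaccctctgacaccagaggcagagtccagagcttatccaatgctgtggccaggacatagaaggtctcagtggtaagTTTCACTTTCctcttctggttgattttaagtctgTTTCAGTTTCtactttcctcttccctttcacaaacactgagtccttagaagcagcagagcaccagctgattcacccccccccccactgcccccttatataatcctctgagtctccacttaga
Irgm1: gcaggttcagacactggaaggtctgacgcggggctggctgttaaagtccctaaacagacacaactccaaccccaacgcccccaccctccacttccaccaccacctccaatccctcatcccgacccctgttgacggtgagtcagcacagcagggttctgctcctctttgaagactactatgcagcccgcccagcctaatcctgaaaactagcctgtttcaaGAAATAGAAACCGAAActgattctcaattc
Gbp2: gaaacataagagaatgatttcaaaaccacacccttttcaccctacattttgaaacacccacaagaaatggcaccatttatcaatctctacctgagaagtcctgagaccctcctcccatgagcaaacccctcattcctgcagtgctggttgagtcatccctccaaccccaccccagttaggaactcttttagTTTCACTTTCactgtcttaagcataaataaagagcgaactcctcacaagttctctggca
Isg15 held 3 overlapping matches that begin between 78 and 66 bases before the start, Ifit3 held 2, at 156 and 122 bases, Irgm1 2 overlapping ones, at 30 and 24 bases, and Gbp2 1, at 59 bases. The letters were found in 2.98% of all 32851 windows. Counted by gene, 3.06% of tested genes and 3.46% of all genes with a window held them in any window. Of the interferon-stimulated genes with a window, 12 of 26 that fell held them, 0 of 3 that rose and 4 of 10 that did not pass the test.

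Genes of antigen presentation by the major histocompatibility complex (MHC) had a smaller median change. Of 22 genes, class I and class II together, 13 fell and 0 rose (median −0.20). B2m, the light chain of class I molecules, was at 2773, 2945, 2448 and 2304 CPM at passage 4 and at 2128, 2248, 2181 and 2093 CPM at passage 7. The groups did not overlap (log2 fold change −0.27, SE 0.05, adjusted p = 0.00027). The immunoproteasome subunit Psmb10 fell by 0.74 and the peptide transporter subunits Tap2 and Tap1 by 0.55 and 0.16. H2-K1 fell by 0.20 and H2-D1 by 0.21, and reads of such near-identical class I genes may be shared. Class II genes did not follow: H2-Ab1, at 0.09, and Cd74, at 0.03, did not pass the test. Without the set term 6 of the 22 fell, and with the chromosome medians taken out 8 fell.

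The chemokines and adhesion molecules that NF-kB drives moved in both directions. Of 31 members, 13 fell and 6 rose (median −0.18). Icam1, the ligand that leukocyte integrins hold, was at 172, 179, 129 and 142 CPM at passage 4 and at 66.7, 61.2, 50 and 52.4 CPM at passage 7. Its level was low in all later libraries (log2 fold change −1.43, SE 0.05, adjusted p = 1e-13). Ccl20, a chemokine for dendritic and T cells, was at 4.34, 5.12, 4.61 and 4.72 CPM and then at 0.298, 0.557, 1.46 and 0.911 CPM (log2 fold change −2.56, SE 0.27, adjusted p = 4e-07). Vcam1 fell by 1.04, Ccl2 by 1.38 and Cxcl5 by 0.96. Lcn2, a secreted iron-chelator carrier of injured tubules, rose by 0.24, Il33 by 0.73 and the inhibitor Nfkbia by 0.27. Mmp7, the matrix metalloproteinase matrilysin, was at 382, 456, 447 and 463 CPM and then at 117, 120, 120 and 115 CPM. It was low in each passage 7 library (log2 fold change −1.89, SE 0.05, adjusted p = 2e-15). Of the 6 members of the NF-kB list that rose, 1 did so without the set term, and 3 when replicate 1 or 2 of passage 4 or replicate 2 of passage 7 was left out.

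**Figure D5:**
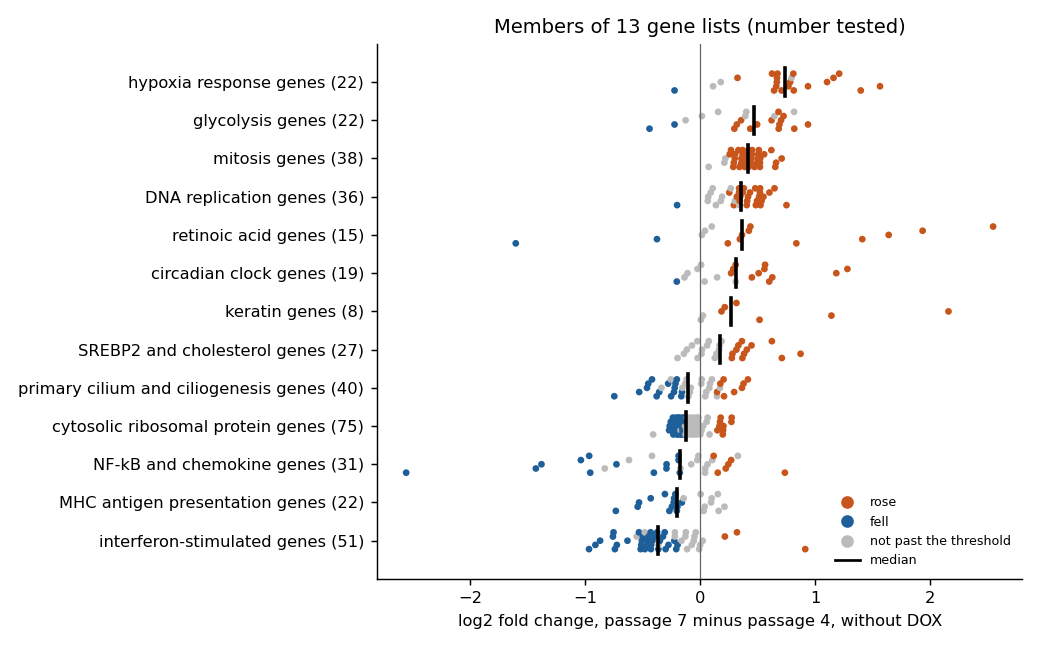
Log2 fold change from passage 4 to passage 7 without DOX for the tested members of 13 gene lists; each point is 1 gene, orange where it rose, blue where it fell and grey where it did not pass the test, and the black bar is the median. Medians run from 0.74 for hypoxia response genes to −0.37 for interferon-stimulated genes.

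Among genes that handle retinoids, some changed by more than 2-fold and others by little. Vitamin A enters cells through Stra6, is oxidised to retinoic acid by aldehyde dehydrogenases and is broken down by Cyp26 enzymes. Of 15 tested members, 10 rose and 2 fell (median 0.36). Stra6 was at 21.2, 22.6, 23.1 and 24.9 CPM at passage 4 and at 58.5, 61.8, 60.9 and 62.4 CPM at passage 7. The groups were far apart (log2 fold change 1.41, SE 0.06, adjusted p = 2.8e-12). Aldh1a3 rose by 1.93 and Aldh1a1 by 0.83, while the catabolic genes split, Cyp26b1 rising by 2.55 and Cyp26a1 falling by 1.61. The means were low, 0.691 and 2.76 CPM for Aldh1a3, 1.01 and 1.76 CPM for Aldh1a1 and 1.94 and 0.625 CPM for Cyp26a1. The passages overlapped for Aldh1a1 (adjusted p = 0.035), and its call was lost with the chromosome medians taken out (adjusted p = 0.079). The receptor genes Rara and Rarg rose by 0.42 and 0.43.

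Signals of the BMP and activin family moved both ways, with 8 of 23 members higher and 4 lower and a median log2 fold change of 0.0052. Bmp7, a ligand that maintains nephron progenitors and tubules, was at 22.7, 18.5, 20.1 and 19.3 CPM at passage 4 and at 51.2, 61.4, 57 and 53.8 CPM at passage 7. It was high in every later library (log2 fold change 1.47, SE 0.08, adjusted p = 2.5e-11). The ligands Bmp4, Bmp2 and Bmp6 rose by 1.10, 0.77 and 0.74. Bmp4 had low means of 1.97 CPM at passage 4 and 4.19 CPM at passage 7. Its change was 0.50 in replicates 1 and 2 and 1.88 in replicates 3 and 4. Among the secreted inhibitors, Fst, which binds activins, was at 147, 143, 107 and 91.6 CPM and then at 66.2, 61, 51.7 and 52.4 CPM. All later values were lower (log2 fold change −1.07, SE 0.06, adjusted p = 9.4e-11). Of the targets, Id3 rose by 0.71 and Smad6 by 0.36, and Id1, at 0.19, did not pass the test.

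Of 25 Wnt pathway genes, 12 rose and 6 fell. The collecting duct ligand Wnt7b, on chromosome 15, was at 510, 493, 490 and 478 CPM at passage 4 and at 629, 649, 658 and 618 CPM at passage 7, without overlap (log2 fold change 0.37, SE 0.04, adjusted p = 7.4e-07). Wnt4 rose by 0.66 and the transcription factor Tcf7 by 0.73, the inhibitor Sfrp1 fell by 0.73, and the target Axin2, at 0.27, did not pass the test. Of 14 Notch genes, 8 rose and 3 fell: the receptors Notch1, Notch2, Notch3 and Notch4 rose by 0.19, 0.19, 0.46 and 1.70, the ligand Jag2 rose by 0.64, and the ligands Jag1 and Dll1 fell by 0.29 and 0.39. Among the 17 genes of the EGF family, 5 rose and 6 fell. Egfr was at 203, 190, 180 and 198 CPM and then at 162, 145, 141 and 148 CPM, all lower at passage 7 (log2 fold change −0.37, SE 0.05, adjusted p = 7.9e-06), while its ligands Areg and Tgfa rose by 0.50 and 0.31. Without the set term 3 Wnt genes fell, 1 Notch gene fell and 2 genes of the EGF family rose.

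In prostaglandin synthesis, 6 of 13 genes rose and 1 fell. Ptges, the inducible synthase of prostaglandin E, was at 7.85, 7.42, 3.75 and 1.81 CPM at passage 4 and at 24.2, 28.3, 18.8 and 15.8 CPM at passage 7. Its groups lay apart (log2 fold change 2.10, SE 0.18, adjusted p = 9.9e-07). The constitutive cyclooxygenase Ptgs1 was at 15.4, 16.4, 20.6 and 16.1 CPM and then at 37, 37.1, 33.1 and 34.4 CPM (log2 fold change 1.04, SE 0.09, adjusted p = 2.3e-08), whereas the inducible Ptgs2, at 0.33, did not pass the test. The receptor Ptger3 rose by 1.89 and Ptger4 fell by 0.36. Of 21 genes that make, read or degrade cyclic AMP, which drives cyst growth in polycystic kidneys, 8 rose and 3 fell. The cyclase Adcy7 rose by 2.17, the phosphodiesterases Pde1c, Pde8a and Pde4b by 2.64, 0.79 and 0.74, and Pde4c fell by 0.64.

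Of 19 circadian clock genes, 11 rose and 1 fell (median 0.31). Nr1d1, the repressor of the clock's activating arm, was at 10.6, 11.2, 16.4 and 12.7 CPM at passage 4 and at 35.4, 29, 29.5 and 29.6 CPM at passage 7. Every passage 7 library was higher (log2 fold change 1.28, SE 0.12, adjusted p = 2.3e-07). The output factor Dbp was at 13.4, 11.2, 8.29 and 5.11 CPM and then at 24.4, 25, 17.5 and 18.6 CPM (log2 fold change 1.18, SE 0.12, adjusted p = 4.3e-07). Arntl, the activator of the clock, changed by 0.01 and did not pass the test. The labels give no time of day for the harvests. Of 27 genes of cholesterol synthesis and its control, 12 rose and 0 fell (median 0.17). Fdps rose by 0.87, Insig1 by 0.71, Cyp51 by 0.62 and Sqle by 0.40. Fdps had low means of 2.56 CPM at passage 4 and 4.75 CPM at passage 7, and its passages overlapped.

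Among collecting duct genes the subunits of the epithelial sodium channel parted. Scnn1a, the alpha subunit, was at 88.7, 88.3, 126 and 118 CPM at passage 4 and at 154, 143, 173 and 167 CPM at passage 7. All later libraries were higher (log2 fold change 0.61, SE 0.06, adjusted p = 5.8e-08). Scnn1b, the beta subunit, was at 3.84, 3.04, 3.08 and 3.46 CPM and then at 0.82, 0.716, 1.13 and 0.304 CPM, a few counts in each later library (log2 fold change −2.12, SE 0.27, adjusted p = 4.6e-06). Scnn1g, the gamma subunit, fell by 1.33. Of the other principal cell markers, the transcription factor Gata3 rose by 1.20 and the cortisol-inactivating enzyme Hsd11b2 by 0.57, and the kidney cadherin Cdh16, at 284, 282, 329 and 308 CPM and then at 210, 220, 235 and 245 CPM, fell by 0.40 without overlap (SE 0.04, adjusted p = 3.7e-07). In all, 5 of 12 tested principal cell markers rose and 4 fell.

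Of 4 tested intercalated cell markers, 3 fell and 0 rose: Atp6v0d2 and Atp6v0a4, subunits of the proton pump, by 1.28 and 0.90 and the insulin receptor relative Insrr by 1.22. Their list summed to 22.4 to 31.5 CPM at passage 4 and 10.6 to 16.4 CPM at passage 7, with the lineage factor Foxi1 at or near 0. Ret, the receptor of the ureteric bud tip, was at 29.6, 28.2, 31.8 and 26.7 CPM and then at 66.5, 69.8, 65.9 and 65.9 CPM. Passage 7 was higher in each library (log2 fold change 1.20, SE 0.06, adjusted p = 2.8e-11). The nephric factor Pax2 rose by 0.15, and Pax8, at −0.09, did not pass the test.

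Keratins, the intermediate filaments of epithelia, rose in 6 of 8 tested cases and fell in 0 (median 0.26). Krt80 was at 14.9, 13.8, 20.9 and 17.4 CPM at passage 4 and at 34.8, 34.9, 38 and 39.4 CPM at passage 7, without overlap (log2 fold change 1.14, SE 0.08, adjusted p = 2.1e-09). Krt4, a keratin of stratified linings, rose by 2.16 from 0.551 to 1.34 CPM in the earlier libraries to 3.31 to 5.25 CPM in the later ones. The simple keratins Krt8, Krt18 and Krt19 rose by 0.21, 0.31 and 0.51. Apart from Krt19, on chromosome 11, the keratins that rose lie on chromosome 15, and with the chromosome medians taken out 3 of the 8 rose. Of 18 S100 and annexin genes, 11 rose and 3 fell (median 0.21), led by S100a14 and Anxa8. Of 17 genes of squamous differentiation, 8 rose and 4 fell. The plakophilin Pkp1 rose by 1.53 and the transglutaminase Tgm1 by 1.43, and the desmosomal cadherins Dsc2 and Dsg3 fell by 0.94 and 0.79, of which the call of Dsg3 was lost with the block (adjusted p = 0.055).

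Matrix genes moved both ways. Of 22 basement membrane genes, 5 rose and 7 fell. Nid1, the nidogen that links laminin to collagen IV, was at 25.4, 27.4, 16.5 and 20.5 CPM at passage 4 and at 7.15, 7.72, 4.37 and 6.89 CPM at passage 7, low in every later library (log2 fold change −1.79, SE 0.12, adjusted p = 6.7e-10). Nid2 fell by 1.15 and Col15a1 rose by 2.30. Within replicates 1 and 2 alone 1 basement membrane gene fell, and without the set term 3 did. Of 23 genes of TGF-beta signalling and interstitial matrix, 9 rose and 6 fell. Sparc, a collagen-binding glycoprotein, was at 5.84, 5.19, 5.82 and 6.69 CPM and then at 15.8, 20.1, 19.7 and 16.5 CPM (log2 fold change 1.62, SE 0.12, adjusted p = 2.5e-09). Col6a1, Ltbp2, Col1a1 and Col12a1 rose by 1.89, 1.85, 1.74 and 1.64, and Fstl1 fell by 1.55. Levels were low for Col1a1, with 3 to 7 counts in a passage 4 library and 10 to 23 in a passage 7 library. Col12a1 was low too, with means of 1.35 and 4.08 CPM. Of the imprinted genes, 6 of 20 rose and 3 fell, among them Peg3, which went from 189, 181, 134 and 166 CPM to 92.9, 99.8, 61.8 and 70.1 CPM (log2 fold change −1.06, SE 0.07, adjusted p = 2.8e-08), and its neighbour Usp29, which fell by 0.94.

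Genes of the cytosolic ribosome parted by chromosome. Of 75 cytosolic ribosomal protein genes, 33 fell and 9 rose (median −0.12). The 10 that lie on chromosomes 5, 15 and 16 gave 9 rises and 0 falls with a median of 0.19, and the 65 elsewhere gave 0 rises and 33 falls with a median of −0.13. Rpl8, on chromosome 15, was at 532, 535, 537 and 536 CPM at passage 4 and at 583, 650, 623 and 595 CPM at passage 7, whereas Rps3, on chromosome 7, was at 718, 719, 665 and 637 CPM and then at 597, 635, 634 and 580 CPM. Neither gene's groups overlapped, and the log2 fold changes were 0.19 (adjusted p = 0.0014) and −0.16 (adjusted p = 0.008). With the chromosome medians taken out, 9 of the 75 fell and 0 rose. Within replicates 3 and 4 alone 13 fell, without the set term 18, and reads of these genes may be shared with processed copies.

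Nuclear genes of the respiratory chain gave 7 rises and 21 falls of 65 (median −0.09), with 5 rises and 0 falls among the 8 on chromosomes 5, 15 and 16. Leaving out replicate 1 of passage 7 gave 12 falls, as did dropping the set term, and with the chromosome medians taken out 15 fell and 0 rose. Leaving out replicate 4 of either passage gave 3 rises. Of 40 genes of the primary cilium, the organelle where the polycystins sit, 8 rose and 15 fell (median −0.11). The 9 on chromosomes 5, 15 and 16 gave 5 rises and 0 falls, and the 31 elsewhere 3 rises and 15 falls. Taking out the chromosome medians left 2 rises and 11 falls, and dropping the set term 3 rises and 10 falls. Ift172, a carrier of intraflagellar transport on chromosome 5, was at 64.2, 65.4, 67.1 and 64.6 CPM and then at 93.9, 87.9, 75.4 and 82.5 CPM, all higher at passage 7 (log2 fold change 0.38, SE 0.06, adjusted p = 3.6e-05). Dcdc2a, a doublecortin of the axoneme on chromosome 13, was at 127, 122, 93.7 and 102 CPM and then at 64.6, 59.9, 64.2 and 75.1 CPM, all lower (log2 fold change −0.75, SE 0.10, adjusted p = 0.00014).

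The Hox genes, which hold the regional identity of the duct, parted by cluster. Of 29 tested, 5 rose and 9 fell. The 8 genes of the Hoxb cluster on chromosome 11 had a median of −0.32, with 6 falls, and Hoxb8 was at 76.1, 73.9, 91.8 and 97.5 CPM at passage 4 and at 54.4, 49.3, 65.6 and 62.9 CPM at passage 7, without overlap (log2 fold change −0.54, SE 0.05, adjusted p = 1.2e-07). The 10 of the Hoxa cluster on chromosome 6 had a median of 0.17, with 4 rises and 1 fall, and Hoxa11 rose by 0.65. Dropping the set term left 4 falls among the Hox genes, and taking out the chromosome medians 2 rises. The 4 tested members of the list of sex-linked genes, which lie on the Y chromosome, fell (median −0.46). Eif2s3y went from 59.8, 67.2, 71.8 and 76.5 CPM to 49.9, 42.9, 50.4 and 53.7 CPM. The summed level of the list was 222 to 235 CPM at passage 4 and 159 to 177 CPM at passage 7. Of all 7 tested genes of the Y chromosome, 5 fell and 1 rose.

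The same passages were also compared in cells given DOX, in 8 other libraries. There, 3643 genes (23.8%) were higher and 3406 (22.2%) lower at passage 7. Of the 3080 genes that rose without DOX, 2273 also rose with it (73.8% of the first list and 62.4% of the other), and of the 2650 that fell, 1818 fell with it (68.6% and 53.4%). In 93 genes the calls were opposite. Over 14806 genes the log2 fold changes without and with DOX had a Pearson r of 0.79, given as a description across genes, which are not independent replicates.

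The change differed between cells without and with DOX, by the test of the difference, in 821 of 15316 genes (5.36%), 482 with a higher value without DOX and 339 with a lower one. Without replicate 1 of passage 4 without DOX the count was 527. Sema3c, a guidance ligand of epithelial branching, rose by 0.33 without DOX and fell by 0.35 with it (difference 0.68, SE 0.06, adjusted p = 3.9e-07). Its CPM without DOX were 648, 647, 577 and 574 at passage 4 and 785, 826, 754 and 716 at passage 7. Glis2, a zinc finger gene of nephronophthisis, went from 106, 101, 98.9 and 90 CPM to 160, 151, 142 and 136 CPM without DOX and changed by −0.03 with it (adjusted p of the difference 8.3e-07). Angptl6 fell by 0.46 without DOX and rose by 1.26 with it, and Hsd11b2 rose by 0.57 without and fell by 0.39 with it. St3gal1, Chpf and Cdh6 did not pass the test without DOX and fell by 0.76, 0.73 and 0.89 with it. In Sat1, Reep6, Myo3b and Megf6 the rise was larger with DOX.

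Among the 51 interferon-stimulated genes, 19 changed differently in cells without and with DOX, where 5.36% of all genes did. With DOX 46 members fell and 1 rose (median −0.72). The fall of Gbp2 was 0.74 without and 1.61 with DOX on the log2 scale (adjusted p of the difference 1.4e-06), and that of Irgm1 0.53 and 1.03 (adjusted p of the difference 0.00016). Of the MHC genes, 7 of 22 differed, with a median of −0.40 with DOX. The median of the mitosis list was 0.61 with DOX, with 37 rises, but the difference passed the test for 1 of its 38 genes. That of the hypoxia list was 0.92, with 21 rises, and 2 of 22 genes differed. Ribosomal protein genes had 9 rises and 33 falls without DOX (median −0.12) and 24 rises and 1 fall with it (median 0.10), and for 10 of the 75 the difference itself passed the test. Among clock genes 5 of 19 differed: Nr1d1 rose by 1.28 without and by 0.41 with DOX (adjusted p of the difference 0.0043). Pkd2 changed by 0.11 with DOX (adjusted p = 0.19), and the difference from its rise without DOX had an adjusted p of 0.055.

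Between the replicate sets the passage change differed in 675 of 14806 genes (4.56%), 366 with a higher value in replicates 3 and 4 and 309 with a lower one. Of the 5730 genes that differed between passages, 5711 had the same sign in both sets. These genes were called on a change common to both sets in the same libraries, which favours equal signs. Across genes, the changes in the 2 sets had a Pearson r of 0.71, as a description. Txnip, an inhibitor of thioredoxin and of glucose uptake, was at 324, 341, 323 and 300 CPM at passage 4 and at 311, 354, 649 and 602 CPM at passage 7. Only replicates 3 and 4 of passage 7 were high (adjusted p of the set difference 1.7e-07), and its overall change of 0.51 did not pass the test. Wdr5b was at 30.7, 26.6, 9.5 and 9.2 CPM and then at 52.1, 50.3, 44.8 and 45.4 CPM, its change 0.84 in replicates 1 and 2 and 2.27 in 3 and 4. Mif, Pdk1 and Pfkl had higher changes in replicates 3 and 4 as well. With the replicate number as a block the passage calls of Wdr5b, Mif and Pfkl were lost (adjusted p = 0.052, 0.11 and 0.062). Lama5, a laminin chain, was at 974, 994, 1334 and 1369 CPM and then at 1391, 1229, 1223 and 1311 CPM, with both passage 7 values above those of passage 4 in replicates 1 and 2 and both below them in 3 and 4. Nup210, Sema4b, Gdf15 and Nes also had a lower passage change in replicates 3 and 4 than in 1 and 2. The list of mitochondrial genome genes had 9 tested members, of 12 tested genes of that genome. All 9 differed between sets, with a median of −0.28 in replicates 1 and 2 and 0.19 in replicates 3 and 4. Of these 9, 0 passed the test of passage. mt-Co1, a subunit of cytochrome oxidase, was at 6896, 6073, 7945 and 8000 CPM and then at 6004, 5563, 9103 and 9108 CPM.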

How the data were processed

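Poly(A) RNA from 16 libraries, prepared with a strand-marking kit, was aligned by the authors with STAR 2.6.0c to GRCm38.p6, per the labels' protocols. The deposited count table holds raw counts per Ensembl gene. The counting tool and its strand setting are not given in the sources used here, and a deposited table of normalised values was not used. The 8 libraries without DOX were fitted with edgeR 4.0.16 (limma 3.58.1, R 4.3.3): default low-count filter, TMM factors and a robust quasi-likelihood test of passage with replicate set (1 and 2 against 3 and 4) as a term, on 5 residual degrees of freedom. The difference between cells without and with DOX was tested in all 16 libraries. Every p across genes is adjusted by the Benjamini-Hochberg method over all tested genes at 0.05.

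Genes were named by rule: the 15 in each direction with the largest fold change, a mean of 5 CPM or more and no overlap between passages, the 8 with the largest CPM difference, the 5 with the smallest adjusted p for a difference of changes, the 6 members of each list with the smallest adjusted p and its best-known genes, and Pkd2 and Pkd1. Beyond this rule, further list members are named to show members that moved less or against their list, chosen after their values were seen. Some of the genes so named are not reported here. The comparison, the gene lists and their members were chosen with earlier results of these data known, so no list was tested as a set. Alternatives were the set term, the replicate number as a block, DESeq2 1.42.0, its size factors, 2 other filters, all 16 libraries, each replicate set and leaving out each library. Fits with each chromosome's median taken out were chosen after seeing the data. Deviations of same-numbered libraries of the 2 passages from their group means had correlations of 0.359, 0.428, 0.369 and 0.474 over 11720 genes. All were above 0.1, but those of the other number in the same set were 0.32 to 0.514. These values show a shared replicate set and do not show a pairing by number.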

Additional observations from a re-analysis of the deposited data

Results flagged for a closer look

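For 53 of the genes named above, the passage change differed between cells without and with DOX by the test of the product of passage and DOX in all 16 libraries (edgeR quasi-likelihood test, adjusted p under 0.05). Each value here is the change without DOX minus the change with DOX on the log2 scale, so a positive value is a change that was higher, or less of a fall, without DOX. In genes of the interferon response the difference was 0.86 for Gbp2, 0.94 for Ifit3, 1.04 for Ifit3b, 0.62 for Iigp1 and 0.47 for Samd9l. The GTPases Igtp, Irgm1 and Irgm2 and the peptide transporter Tap1 gave 0.52 for Igtp, 0.49 for Irgm1, 0.43 for Irgm2 and 0.27 for Tap1. The chemokines Ccl2 and Cxcl5 and the proteases Mmp7 and Plau gave 1.59 for Ccl2, 1.56 for Cxcl5, 0.68 for Mmp7 and 0.27 for Plau. Among genes of the kidney epithelium, adhesion and junction genes gave 0.6 for Cdh16, 0.79 for Cdh6 and 0.71 for Cldn19. The transcription factors gave 0.41 for Pax2, 0.23 for Pax8 and 0.599 for Glis2, and Hsd11b2, which shields the mineralocorticoid receptor from glucocorticoids, 0.95. Among genes that rose without DOX, the difference was 2.39 for Tns4, 1.89 for Cyp26b1, 1.53 for Krt4 and 1.31 for Lrrc26. It was 0.83 for Elfn1, 0.81 for Sorcs2, 0.85 for Nr1d1 and 0.67 for Ptgs1. Among genes that fell without DOX, it was 1.8 for Thsd7b, 0.68 for Fst and 0.28 for Itga3. Genes of the cell surface, matrix and signalling gave 0.87 for Chpf, 0.68 for Sema3c, 0.69 for Spp1, 0.66 for St3gal1, 0.54 for Id3 and 0.35 for Rarg. A lower change without DOX was found in secreted, matrix and junction genes, with −0.9 for Ltbp2, −1.22 for Megf6, −1.5 for Pkp1, −1.2 for Fstl1 and −1.73 for Angptl6. Sqle, an enzyme of sterol synthesis, gave −0.46, and genes of the cilium −0.68 for Dcdc2a and −0.43 for Ift172. The remaining lower values were −0.31 for Krt8, −0.34 for Lcn2, −0.25 for Hif1a and −0.54 for Slc2a1. Arntl, a core clock factor, and 3 further genes gave −0.42 for Arntl, −0.74 for Reep6, −0.72 for Sat1 and −1.22 for Myo3b.

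For 30 genes, the change differed between the replicate sets, by the test of the product of passage and set in the 8 libraries (adjusted p under 0.05). Values are the change in replicates 3 and 4 minus that in replicates 1 and 2 on the log2 scale. In genes of glycolysis and of the response to low oxygen the change was higher in replicates 3 and 4, by 1.07 for Pgk1, 1.17 for Bnip3, 0.94 for Pdk1, 0.86 for Egln3 and 0.85 for Ldha. Further genes of this kind gave 0.84 for Mif, 0.75 for Pfkl, 0.69 for Tpi1 and 0.49 for Gapdh. Smaller differences were 0.44 for Pkm, 0.34 for P4ha2, 0.34 for Vegfa and 0.48 for Bsg. Ldhb, the other lactate dehydrogenase subunit, gave 0.27, and Txnip, a brake on glucose uptake, gave 1.01. Other positive differences were 1.43 for Wdr5b, 1.37 for Bmp4, 0.50 for Dcdc2a, 0.40 for Spp1 and 0.36 for mt-Co1. Negative differences were −0.63 for Nup210, −0.61 for Usp18, −0.56 for Id1, −0.55 for Sema4b and −0.52 for Nes. Others were −0.51 for Lama5, −0.48 for Gdf15, −0.44 for Pkd1, −0.39 for Rarg and −0.27 for Actb. Pkd2 showed no such difference past the threshold, with changes of 0.44 in replicates 1 and 2 and 0.38 in replicates 3 and 4 (adjusted p = 0.72).

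In 13 of 412 pairs of a named gene and a passage without DOX, 1 library stood apart from the other 3 by Dixon's criterion at 95%, which chance alone gives in about 1 group in 20. Above the rest stood Cdh6 replicate 4 of passage 4 at 169 CPM against 152 to 155 CPM in the other 3. High too was Cldn19 replicate 2 of passage 4 at 29.7 CPM against 26.1 to 26.5 CPM in the other 3. High too was Irf9 replicate 3 of passage 4 at 97.7 CPM against 88.7 to 90.2 CPM in the other 3. High too was Krt18 replicate 3 of passage 7 at 1808 CPM against 1613 to 1638 CPM in the other 3. High too was Myo3b replicate 2 of passage 4 at 23.9 CPM against 19.7 to 20.4 CPM in the other 3. High too was Nr1d1 replicate 1 of passage 7 at 35.4 CPM against 29 to 29.6 CPM in the other 3. High too was Pde4c replicate 4 of passage 7 at 5.57 CPM against 3.98 to 4.25 CPM in the other 3. High too was Pou3f3 replicate 2 of passage 7 at 3.82 CPM against 2.63 to 2.76 CPM in the other 3. Below the rest stood Insig1 replicate 1 of passage 7 at 54.5 CPM against 65.5 to 66.1 CPM in the other 3. Also lower was Ltbp2 replicate 3 of passage 7 at 10.4 CPM against 15.1 to 15.5 CPM in the other 3. Also lower was Notch4 replicate 2 of passage 7 at 2.94 CPM against 3.54 to 3.65 CPM in the other 3. Also lower was Slc8a1 replicate 3 of passage 7 at 0.808 CPM against 1.42 to 1.51 CPM in the other 3. Also lower was Sqle replicate 4 of passage 4 at 95 CPM against 103 to 104 CPM in the other 3.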

How the results depend on the processing

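The precision of these values is limited by 4 libraries a passage, by sets that hold 2 libraries of each passage, and by labels that do not tell cultures from repeat preparations. A fit without the set term went from 3080 higher and 2650 lower genes to 2036 and 1549, and the genes whose change differed between cells without and with DOX went from 821 to 183. With no low-count filter, 529 genes in place of 350 were at least 2-fold higher, with more genes tested. The fit with the replicate number as a block gave 2776 higher and 2285 lower genes, 342 and 192 of them 2-fold or more. It gave 715 genes differing by DOX. A pairing by number beyond the replicate set was not shown. Under the block 9 of the 206 named genes, Bnip3, Dsg3, Gins2, Ldha, Mif, Pdk1, Pfkl, Pkd1 and Wdr5b, lost their call and 0 gained one. Leaving out 1 library at a time gave 2580 to 2906 higher genes, 2209 to 2551 lower genes, 359 to 408 and 196 to 225 genes past 2-fold, and 527 to 946 genes differing by DOX, where the lowest count came without replicate 1 of passage 4 without DOX. DESeq2 gave 2654 higher and 2216 lower genes. The genes whose change differed between replicate sets numbered 675, and 465 in all 16 libraries. Of the 184 named genes with a call, 54 lost it under at least 1 of 18 alternatives, 33 of them without the set term. Some named genes changed sign, and the cause was not tested. Within replicates 1 and 2 the log2 change was −0.00422 for Txnip, 0.252 for Usp18, −0.219 for Arntl, 0.0329 for Gdf15, −0.113 for H2-Ab1, −0.058 for Cd74 and −0.168 for mt-Co1. Within replicates 3 and 4 it was −0.0918 for Id1, −0.1 for Lama5, −0.226 for Nes and −0.196 for Nup210. With each chromosome's median taken out, it was −0.0161 for Nes, −0.0027 for Nup210, −0.0375 for Rpl8 and −0.0203 for Krt8, and with no low-count filter it was −0.00326 for Arntl. Leaving out 1 library at a time, the change crossed 0, with ranges of −0.0359 to 0.136 for Nes, −0.114 to 0.0705 for Usp18, −0.0522 to 0.0814 for Arntl, −0.212 to 0.65 for Axin2, −0.0128 to 0.183 for H2-Ab1, −0.0139 to 0.0873 for Cd74 and −0.0343 to 0.0851 for mt-Co1.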
